A study of Mus musculus with 30 samples.

Results

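The brains of Csa-/- mice and of wild-type mice were compared at 12 months of age by RNA sequencing. Csa is the older name of Ercc8. The members were the columns of the deposited count table whose labels give an age of 12 months, 5 for Csa-/- and 5 for wild type, which is 10 of the 30 columns of the series. The other columns hold the same genotypes at 45 days and 24 months, and the title of the series names the MAPK and PI3K-Akt pathways, the extracellular matrix, inflammation and neuronal signalling. Per the labels, both groups were housed alike with free access to food, were killed by an overdose of xylazine and ketamine, and gave pulverised brain from which poly(A) RNA was sequenced as pairs of 75-base reads on a SOLiD instrument, 5 times per sample. The labels do not describe the Csa allele, and do not give strain, sex or the number of animals behind a library, and no cell type restriction is named for the mutation.

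Ercc8 encodes CSA, a part of the ubiquitin ligase that is recruited when RNA polymerase II stalls at damaged DNA, and its loss in humans causes one form of Cockayne syndrome, with degeneration of brain and myelin. In the brain, microglia (the resident macrophages) and astrocytes respond to damage with a recurrent set of transcripts: microglia lower homeostatic genes such as P2ry12 and raise genes such as Itgax and Clec7a, and astrocytes raise Gfap, Vim and Serpina3n. A whole-brain library also mixes regions. Levels of transcripts of cortex, striatum, cerebellum, hindbrain and pituitary can vary with how much of each was taken, which was not measured here. In such bulk RNA, fewer cells of a type and less RNA per cell cannot be told apart.

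The labels say that each sample was sequenced 5 times, and the 5 columns of a group differed by little more than counting error. Their totals ran from 3528145 to 4211703 counts for wild type and from 2659732 to 3157306 for Csa-/-, and the chi-square of a gene's 5 counts, divided by its degrees of freedom, had a median of 0.995 and 0.955, where counting error alone gives about 1. The chi-square p of a gene was under 0.05 for 10.8% of genes in wild type and 8.61% in Csa-/-, above the 5% that counting error gives. The runs were summed to 1 library per genotype, of 19648751 counts for wild type and 14598535 for Csa-/-. With 1 library a group there is no measure of the spread between mice, so no p-value is given, and the spread between runs is technical. Levels are given as CPM, which sets each library's counts on one common scale, with TMM factors. Each fold is Csa-/- over wild type with an exact 95% Clopper-Pearson interval, which covers counting error only. A gene was called higher or lower when it reached 5 CPM in the higher library and its whole interval lay beyond 1.5-fold. A gene under 5 CPM in one library thus entered only through the other, which favours calls towards that other library in the counts of every list.

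Ercc8 itself (chr13:108158731-108195364, mm10) was not lower in the library labelled Csa-/-. It had 11.3 CPM in wild type (runs 10.2 to 12.5) and 13.0 CPM in Csa-/- (runs 10.8 to 14.5), a fold of 1.15 (0.939 to 1.40). The 2 ranges of runs overlapped. A count over the whole gene does not show whether the transcript still encodes the protein, and the allele is not described, so this value is no check of the genotype; the directions below follow the labels.

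Of 12394 genes with at least 5 CPM in one of the libraries, 443 were called higher in Csa-/- (3.57%) and 283 lower (2.28%), together 5.86%. Runs of Csa-/- and wild type did not overlap for 436 of the 443 and 282 of the 283. The runs of a group repeat a single library, so this separation adds nothing to the calls. The median log2 fold of all these 12394 genes, on CPM plus a pseudocount of 0.5, was -0.04, and the interquartile range ran from -0.28 to 0.23. Of the 12394, 6763 had a fold below 1 and 5631 above, the background for such counts in the lists below. Glial and inflammatory genes, hindbrain, cerebellar and pituitary genes and small nucleolar RNAs (snoRNAs) were among those called higher, and genes of cortical and striatal neurons among those called lower. The largest folds upward were those of the pituitary prohormone gene Pomc (0.428 to 30.5 CPM) and of Lcn2 (0.268 to 8.68 CPM), which encodes the iron-trafficking acute-phase protein lipocalin 2. Among the larger folds downward were those of Tmem267, a membrane protein gene (28.9 to 5.63 CPM, 0.195), Ccl28, a chemokine gene (9.90 to 2.03 CPM, 0.206), H3f3a, a histone H3.3 gene (14.3 to 2.78 CPM, 0.195), and Sem1, a proteasome subunit gene (24.0 to 8.41 CPM, 0.351). H3f3a and Sem1 have near-identical copies elsewhere in the genome, so their counts are uncertain.

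**Figure D1:**
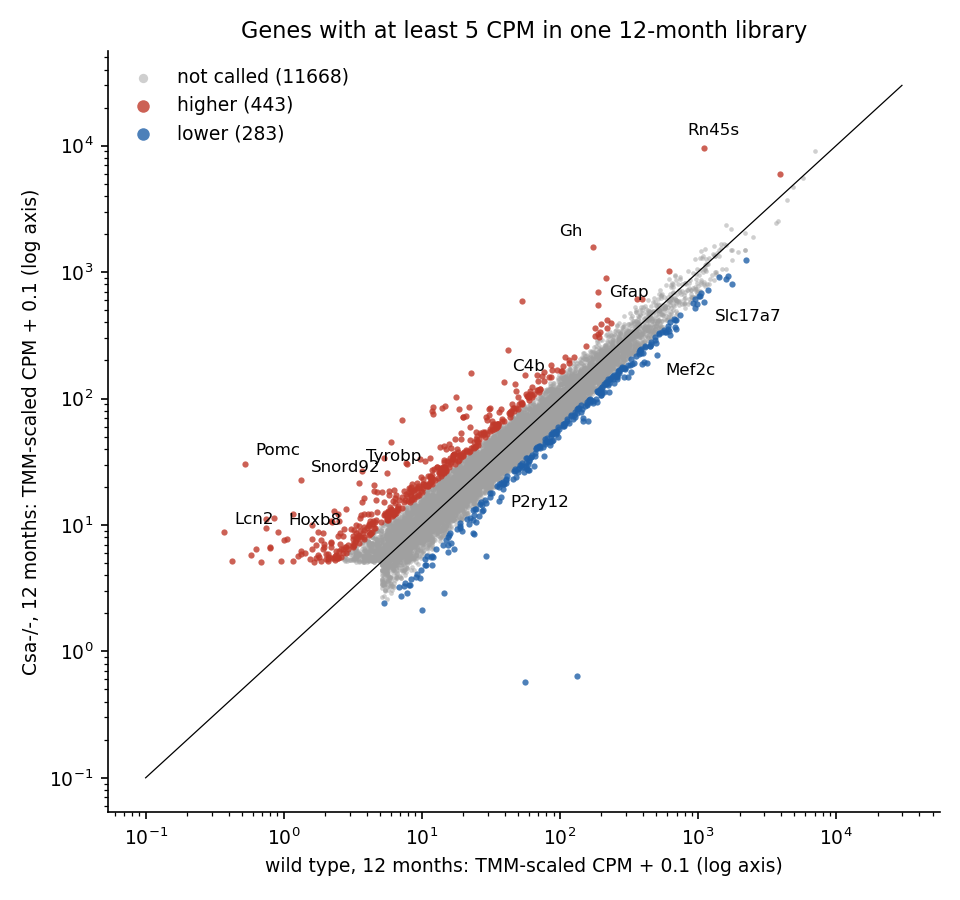
TMM-scaled CPM plus 0.1 in the wild-type (x axis) and Csa-/- (y axis) libraries at 12 months, both on log axes, for the 12394 genes with at least 5 CPM. Each point is a gene; 443 called higher are red, 283 called lower are blue, and the line marks equal levels. Pomc and Lcn2 lie far above the line, and Mef2c and P2ry12 below it.

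The 12-month libraries were also set beside the other 4 libraries of the series, because a gene can differ between 2 libraries through either. Csa-/- at 12 months was the highest of the 6 libraries for 193 of the 443 genes called higher (43.6%, against 12.0% of all 12394 genes), and wild type at 12 months was the lowest of the 6 for 290 of them (65.5%, against 13.1%). Among the 283 genes called lower, Csa-/- at 12 months was the lowest for 139 (49.1%, against 14.3%), and wild type at 12 months the highest for 198 (70.0%, against 17.7%). The calls were made on these libraries, so such shares are raised by the choice and are given as a description. For each group below, the levels in the other libraries are given where they bear on the value.

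Several reactive astrocyte genes were called higher in Csa-/-. Of 15 members of that list with at least 5 CPM, 11 had a fold above 1 and 4 below. Of these members, 6 were called higher and 0 lower, and the median log2 fold was 0.59. The summed level of the whole list was 415 CPM in wild type and 1007 CPM in Csa-/-, of which Gfap alone gave 190 and 551 CPM. Among the 6 called, C4b is also in the complement list, and Lcn2 and Serpina3n are also in the acute inflammation list. Gfap (chr11:102887336-102900912), the intermediate filament protein of astrocytes, had 188, 183, 191, 200 and 187 CPM in the wild-type runs and 571, 549, 536, 569 and 529 CPM in the Csa-/- runs. The summed fold was 2.90 (2.79 to 3.02). Vim, another intermediate filament gene, went from 30.4 to 82.9 CPM, a fold of 2.73 (2.47 to 3.02). Serpina3n, a secreted protease inhibitor, had 17.4 to 19.9 CPM in wild-type runs and 78.2 to 87.3 CPM in Csa-/- runs, with a fold of 4.41 (3.91 to 4.98). Lcn2 (chr2:32384633-32388252) had 0.25, 0, 0.285, 0.262 and 0.499 CPM in the wild-type runs and 10.1, 9.31, 9.38, 8.87 and 5.96 CPM in the Csa-/- runs. Its summed counts were 5 and 128, which gave a fold of 32.4 (13.5 to 102). Aspg, which encodes an asparaginase, was 2.35-fold higher (1.74 to 3.20).

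General astrocyte genes had a median nearer 0. Of 16 members, 1 was called higher, the neurotensin receptor gene Ntsr2 (1.76-fold), and 0 lower, with a median log2 fold of 0.16. Aldh1l1, an enzyme used as a pan-astrocyte marker, had a fold of 1.12 (1.02 to 1.24), the water channel gene Aqp4 1.12 (1.06 to 1.17) and glutamine synthetase (Glul) 1.06 (1.04 to 1.08). The glutamate transporter gene Slc1a2 stood at 2178 CPM in wild type and 1488 CPM in Csa-/-, a fold of 0.683 (0.672 to 0.694) whose interval did not lie wholly beyond 1.5-fold. In the other libraries Gfap had 255 CPM in Csa-/- at 45 days and 608 CPM at 24 months, against 274 and 330 CPM in wild type, so that wild type at 12 months was the lowest of the 6.

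Acute inflammation genes were mostly at low levels. Of 31 members, 10 reached 5 CPM; 4 of these were called higher (Lcn2, Serpina3n, Cd14 and Tlr2) and 0 lower, with a median log2 fold of 0.80. Cd14, a co-receptor for bacterial lipopolysaccharide, went from 1.61 to 5.43 CPM (3.38-fold, 2.2 to 5.33), and Tlr2, a receptor for bacterial lipoproteins, from 2.57 to 5.90 CPM (2.3-fold, 1.6 to 3.34). The adhesion gene Icam1 was not called, at 2.57 and 5.29 CPM (fold 2.06, 1.42 to 3.02). The classical cytokine genes were near or below the floor that 3 counts give, 0.161 CPM in wild type and 0.203 CPM in Csa-/-. Tnf had 0 and 0.203 CPM, Il6 0.107 and 0 CPM, and Il1b 0.321 and 0.271 CPM, and no fold is given for them. The chemokine genes Ccl4 (0.107 and 1.97 CPM) and Cxcl10 (0.321 and 1.63 CPM) stayed under the 5 CPM limit, with 2 wild-type counts behind the Ccl4 value, whose ratio was 18.4 with a counting interval of 4.65 to 159.

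Among microglial genes, several activation markers were called higher, and homeostatic markers were called in both directions. Of 19 disease-associated microglia genes with at least 5 CPM, 7 were called higher and 1 lower (median log2 fold 0.56). Itgax, which encodes the integrin CD11c, had 0 to 0.749 CPM in wild-type runs and 3.97 to 6.90 CPM in Csa-/- runs, a fold of 11.8 (5.94 to 26.8). Clec7a, the receptor dectin-1, went from 0.910 to 7.53 CPM. Tyrobp, the adaptor of the receptor TREM2, had 5.25, 2.38, 9.11, 6.56 and 4.24 CPM in the wild-type runs and 25.6, 26.8, 22.4, 29.0 and 24.5 CPM in the Csa-/- runs, and its fold was 4.65 (3.73 to 5.84). Trem2 itself was 2.33-fold higher (1.97 to 2.76), the glycoprotein gene Gpnmb 3.17-fold (2.25 to 4.53) and the lysozyme gene Lyz2 3.06-fold (2.58 to 3.63). Cd68, a lysosomal glycoprotein of macrophages, was 1.89-fold higher (1.53 to 2.33), a call lost when the trend of fold with exonic length and GC content was removed. Cst7, a cysteine protease inhibitor, did not reach 5 CPM: it had 3 wild-type counts, and 0.161 and 4.00 CPM, with a ratio of 24.9 (8.12 to 124). Lpl, the lipoprotein lipase gene of that list, was the member called lower (34.9 to 20.1 CPM), and it was not called after the same trend was removed.

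Of 15 homeostatic microglia genes, 1 was called higher (Trem2, which both lists hold) and 2 lower, with a median log2 fold of -0.21. P2ry12, a purine receptor of ramified microglia, had 37.2, 40.8, 37.0, 38.8 and 37.9 CPM in the wild-type runs and 16.4, 19.7, 22.0, 15.7 and 22.6 CPM in the Csa-/- runs, a fold of 0.503 (0.437 to 0.578). Gpr34, a lysophospholipid receptor, went from 17.1 to 6.31 CPM (0.370, 0.290 to 0.467). The call of P2ry12 was lost after the trend with length and GC content was removed, where its fold was 0.621, and that of Gpr34 was kept. Genes found in microglia of either state did not share a direction: Csf1r had 67.2 and 64.1 CPM (fold 0.954, 0.876 to 1.04) and Itgam 36.4 and 32.7 CPM (0.898, 0.798 to 1.01), whereas Aif1, a calcium-binding protein gene, had 1.39 and 4.82 CPM (3.46, 2.18 to 5.65) and lay under the 5 CPM limit. The fractalkine receptor gene Cx3cr1 had a fold of 0.764 (0.698 to 0.835) and Tmem119 1.41 (1.18 to 1.68), and neither was called. P2ry12 was not low in Csa-/- at the other ages, with 32.9 CPM at 45 days and 37.7 CPM at 24 months against 24.4 and 17.8 CPM in wild type.

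Several complement genes were called higher. Of 11 members with at least 5 CPM, 5 were called higher and 0 lower (median log2 fold 0.59), and the list summed to 213 CPM in wild type and 419 CPM in Csa-/-. C4b (chr17:34728380-34743882), the fourth component, had 42.0, 37.6, 39.9, 37.5 and 37.7 CPM in wild-type runs and 137, 133, 137, 131 and 142 CPM in Csa-/- runs. The fold of C4b was 3.50 (3.21 to 3.81). C3, the central component, was 4.78-fold higher (2.96 to 8.04) from 1.18 to 5.63 CPM. The 3 chains of C1q, which microglia make, were higher by 2.2-fold (C1qa, 1.96 to 2.47), 2.19-fold (C1qb, 1.99 to 2.41) and 1.89-fold (C1qc, 1.69 to 2.11), and all 3 calls were lost after the trend with length and GC content was removed. In wild type at 24 months C1qa stood at 45.2 CPM, C1qb at 88.2 CPM and C1qc at 54.1 CPM, against 54.1, 78.5 and 53.1 CPM in Csa-/- at 12 months. C4b had 80.7 CPM in wild type at 24 months and 136 CPM in Csa-/- at 12 months.

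**Figure D2:**
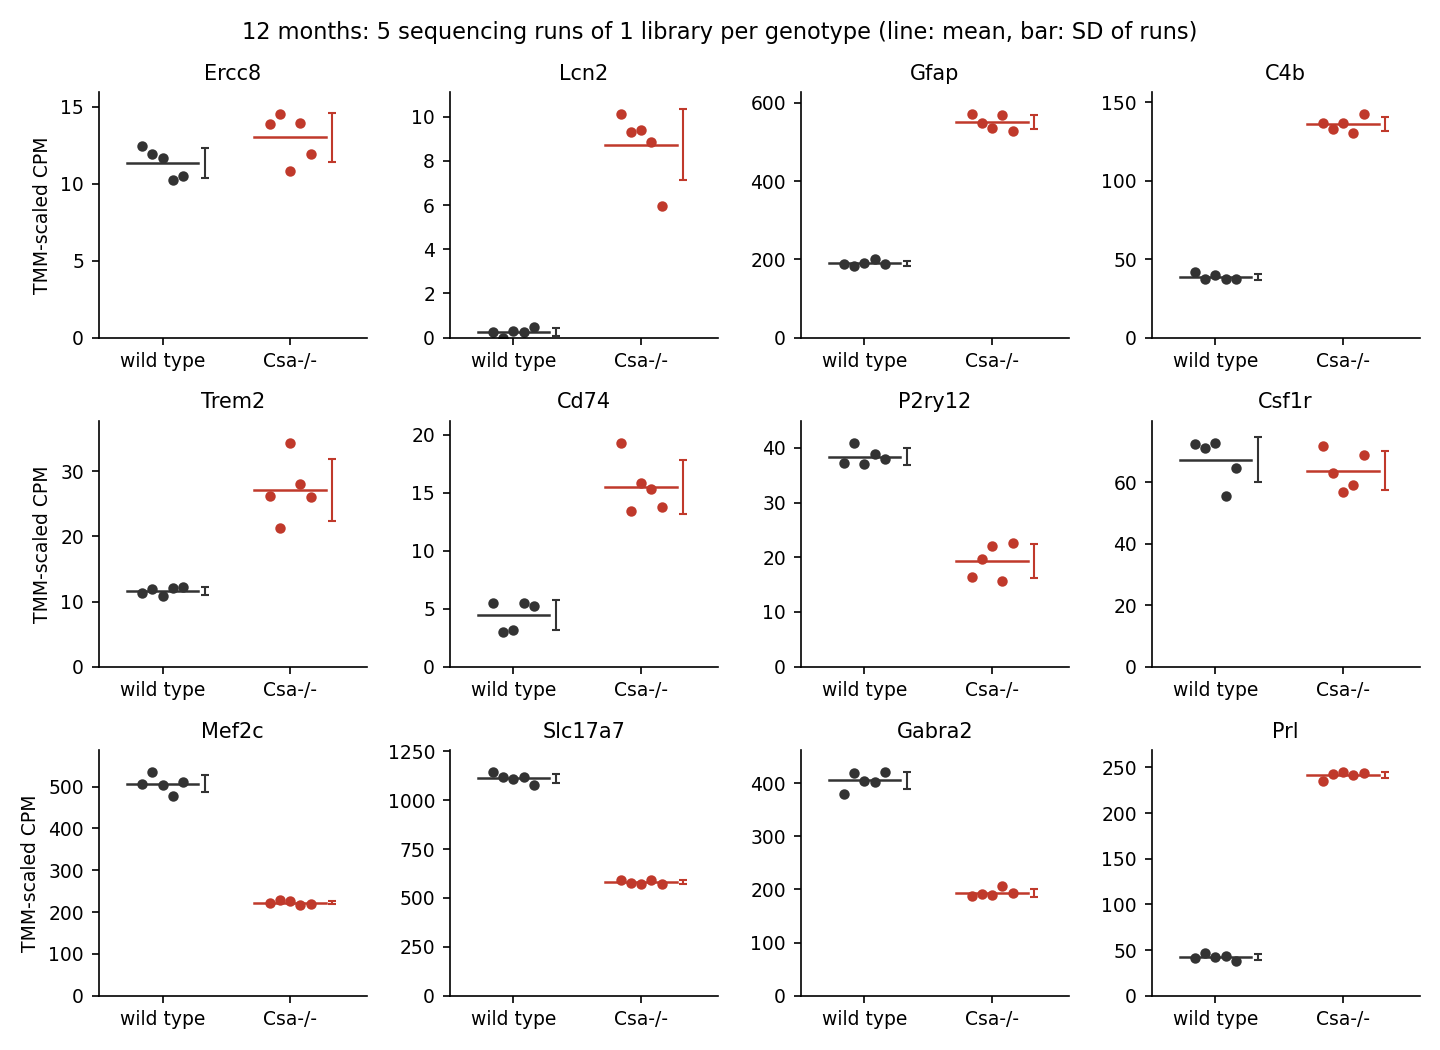
TMM-scaled CPM (y axis) of 12 genes in the 5 sequencing runs of the wild-type (black) and Csa-/- (red) library at 12 months. Points are runs, lines are means over runs and side bars are the SD of the runs, which is technical; Gfap, C4b and Prl are high in Csa-/-, P2ry12, Mef2c, Slc17a7 and Gabra2 are low, and Ercc8 and Csf1r overlap.

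Several antigen presentation genes were called higher in Csa-/-. Of 11 members with at least 5 CPM, 5 were called higher and 0 lower, with a median log2 fold of 0.65. Cd74, the invariant chain of MHC class II, had 5.50, 2.98, 3.13, 5.51 and 5.24 CPM in the wild-type runs and 19.3, 13.4, 15.9, 15.3 and 13.8 CPM in the Csa-/- runs, a fold of 3.43 (2.66 to 4.45). H2-Aa, a class II chain, went from 6.42 to 12.9 CPM (2.01-fold, 1.59 to 2.54). The class I genes H2-D1 (14.3 to 31.3 CPM), H2-K1 (19.6 to 34.9 CPM) and H2-T23 (2.84 to 6.78 CPM) were called higher. The runs of H2-T23 overlapped, and H2-K1 was not called after the trend with length and GC content was removed. These genes have close relatives among which short reads can be shared, so the split between them is uncertain. B2m, the common light chain of class I, had a fold of 1.14 (1.04 to 1.25), and the transporter gene Tap1 was at 3.37 and 3.87 CPM. Wild type at 24 months was above Csa-/- at 12 months for H2-Aa (14.0 CPM), H2-D1 (36.4 CPM), H2-K1 (48.0 CPM) and H2-T23 (7.11 CPM), and close to it for Cd74 (15.5 and 15.6 CPM).

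A few interferon response genes were called higher, at low levels. Of 16 members with at least 5 CPM, 15 had a fold above 1 and 1 below, 3 were called higher and 0 lower, and the median log2 fold was 0.55. Ifi27, a mitochondrial membrane protein gene, went from 16.0 to 33.7 CPM (2.11-fold), Gbp3, an interferon-induced GTPase gene, from 5.99 to 12.6 CPM (2.10-fold) and Rtp4, a receptor chaperone gene, from 2.25 to 5.15 CPM (2.29-fold). Rtp4 runs overlapped. The antiviral genes Ifit1 (4.23 and 6.92 CPM) and Ifit3 (5.24 and 10.2 CPM) were not called. Irf7, Usp18 and Bst2 stayed under 5 CPM, with 1.5 and 4.07, 1.12 and 4.82, and 1.61 and 4.41 CPM.

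The DNA before these genes was searched for 4 motifs on both strands, in windows of 300 bases from RefSeq (GRCm38.p6, 250 bases before to 50 after the start). The interferon-stimulated response element was spelled as GAAA, any 2 bases and GAAA again, and was found in 13 of the 21 interferon list members with a window (61.9%), against 3.40% of the 9822 genes at 5 CPM or more with a window. The Y box core of MHC promoters was spelled ATTGG and was found in 12 of 13 antigen presentation members (92.3%), against 42.8%, and in 4 of the 4 members that were called higher and had a window. An NF-kB-type site, spelled as GGGA, any 4 bases and CC, was found in 5 of 9 complement members and 10 of 23 inflammation members, against 30.9% of all genes. The X box of MHC class II promoters, searched in a degenerate form, was found in 1 of 13 antigen presentation members and in 2 of all 9822 genes. Except for the called members, list members were counted at any level, whereas the background was limited to genes at 5 CPM or more. The sets compared are thus unlike, and only 1 interferon member called higher had a window. A match is a description of the letters, not a bound site. The 250 bases before the start are shown for the interferon-list member that was called and has a window, and for 1 class II and 1 class I gene; capitals mark matches of the first 3 motifs on either strand, and the Gbp3 capitals hold 2 overlapping response elements read from the opposite strand. RefSeq gives Gbp3 and H2-K1 more than 1 start, and the window listed first is shown.
Gbp3, chr3:142559794-142560043, + strand: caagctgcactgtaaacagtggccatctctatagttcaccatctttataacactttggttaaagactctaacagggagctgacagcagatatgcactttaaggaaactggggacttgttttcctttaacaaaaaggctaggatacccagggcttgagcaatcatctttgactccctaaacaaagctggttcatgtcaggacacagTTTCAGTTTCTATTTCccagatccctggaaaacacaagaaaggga
H2-Aa, chr17:34287824-34288073, - strand: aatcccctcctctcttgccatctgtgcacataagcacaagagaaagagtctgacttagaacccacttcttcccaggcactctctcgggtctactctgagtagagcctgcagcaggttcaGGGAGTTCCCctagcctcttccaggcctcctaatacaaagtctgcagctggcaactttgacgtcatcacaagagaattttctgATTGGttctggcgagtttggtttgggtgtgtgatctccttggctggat
H2-K1, chr17:34000334-34000583, - strand: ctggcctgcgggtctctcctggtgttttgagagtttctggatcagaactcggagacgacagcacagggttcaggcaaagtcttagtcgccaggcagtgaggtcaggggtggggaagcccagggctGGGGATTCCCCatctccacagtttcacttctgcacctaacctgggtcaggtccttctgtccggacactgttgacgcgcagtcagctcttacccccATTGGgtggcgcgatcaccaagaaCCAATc

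Genes of cortical and hippocampal neurons leaned lower in Csa-/-. Of 21 members with at least 5 CPM, 19 had a fold below 1, 7 were called lower and 0 higher, and the median log2 fold was -0.56. Mef2c (chr13:83504034-83667080), a transcription factor of cortical neurons, had 507, 534, 504, 479 and 511 CPM in wild-type runs and 221, 228, 227, 218 and 220 CPM in Csa-/- runs. The fold of Mef2c was 0.439 (0.422 to 0.457). Slc17a7 (chr7:45163949-45176142), which loads glutamate into vesicles of cortical and hippocampal neurons, went from 1114 to 582 CPM (0.522, 0.509 to 0.536). The transcription factor genes Neurod6 (59.1 to 26.9 CPM), Tbr1 (97.1 to 49.3 CPM), Bcl11b (94.1 to 54.0 CPM), Foxp2 (52.3 to 29.5 CPM) and Lmo4 (164 to 99.0 CPM) were also called lower. Foxp2 was not called after the trend with length and GC content was removed, and Foxp2 and Lmo4 were not called with scaling to library totals. Camk2a, a kinase of excitatory synapses, had 2187 and 1493 CPM, a fold of 0.683 (0.671 to 0.694) that was not called.

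Striatal genes leaned lower too. Of 17 members, 15 had a fold below 1, 4 were called lower and 0 higher, and the median log2 fold was -0.46. The adenosine receptor gene Adora2a went from 37.3 to 16.7 CPM (0.447, 0.385 to 0.518), the dopamine receptor gene Drd1 from 87.7 to 46.1 CPM (0.526) and the phosphodiesterase gene Pde10a from 382 to 242 CPM (0.635). The Pde10a call was lost with scaling to library totals and after removal of the trend with length and GC content. Wild type at 12 months was the highest of the 6 libraries for all 7 cortical genes and all 4 striatal genes that were called. Csa-/- at 12 months was the lowest of the 6 for 4 of those 7 cortical genes and 0 of those 4 striatal genes. Drd1, for example, had 35.5 CPM in wild type at 45 days and 36.3 CPM at 24 months, below the 46.1 CPM of Csa-/- at 12 months.

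Neurotransmission genes were called in both directions. Of 32 glutamatergic signalling genes, 25 had a fold below 1, 3 were called lower and 1 higher, with a median log2 fold of -0.22. Besides Slc17a7 these were Gria2, an AMPA receptor subunit gene (1023 to 650 CPM, 0.636), and Cacng3, an AMPA receptor auxiliary subunit gene (66.2 to 36.8 CPM, 0.555). The gene called higher was Grm4, a metabotropic receptor of cerebellar granule cells (59.8 to 102 CPM, 1.71-fold). Of 28 GABA and glycine genes, 22 had a fold below 1, 3 were called lower and 2 higher, with a median log2 fold of -0.35. Gabra2 (chr5:70957597-71095849), an alpha subunit of the GABA-A receptor, had 379, 420, 403, 403 and 420 CPM in wild-type runs and 187, 191, 189, 207 and 193 CPM in Csa-/- runs, a fold of 0.478 (0.457 to 0.499). Gabra4, another alpha subunit, was also called lower (0.545). The 2 called higher belong to glycine signalling of hindbrain and spinal cord: the glycine transporter gene Slc6a5 went from 4.44 to 18.4 CPM (4.14-fold, 3.22 to 5.36) and the glycine receptor gene Glra1 from 14.4 to 32.8 CPM (2.28-fold, 1.96 to 2.66). The calls of Gria2, Gabra4 and Grm4 were lost after the trend with length and GC content was removed, and that of Gria2 also with scaling to library totals.

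Of 35 genes of the presynapse and of excitability, 2 were called lower and 4 higher, with a median log2 fold of -0.09. Syt1, the calcium sensor of vesicle release, went from 1590 to 879 CPM (0.553) and Vamp2, a vesicle fusion protein gene, from 1409 to 908 CPM (0.644), a call lost with scaling to library totals. Sv2c, a vesicle glycoprotein gene of basal ganglia and midbrain neurons, went from 32.9 to 62.8 CPM (1.91-fold), and Hcn2 (1.74-fold), Pvalb (2.00-fold) and Nefh (1.65-fold) were the others called higher, of which Nefh was not called after the trend with length and GC content was removed. Of 26 immediate early genes, 2 were called lower and 0 higher, with a median log2 fold of -0.24. Egr1 went from 454 to 269 CPM (0.592) and Klf10 from 57.8 to 27.5 CPM (0.476), whereas Fos had 38.4 and 56.3 CPM (1.47, 1.33 to 1.62) and was not called. Egr1 had 132 CPM in wild type at 45 days and 221 CPM at 24 months, so its wild-type level at 12 months was the high one.

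Many hindbrain and spinal cord genes were called higher in Csa-/-. Of 19 genes of brainstem, thalamus and spinal cord with at least 5 CPM, 9 were called higher and 0 lower, with a median log2 fold of 0.69. Hoxb5, Hoxb6, Hoxb8, Irx2 and Slc6a5 reached 5 CPM in Csa-/- alone, so the limit itself favoured calls in that direction. The Hoxb genes, which mark posterior hindbrain and spinal cord, had the largest folds of that list. Hoxb8 (chr11:96281905-96285315) had 0.50, 1.19, 0.57, 1.31 and 0.499 CPM in the wild-type runs and 6.95, 11.5, 8.30, 6.82 and 10.3 CPM in the Csa-/- runs, a fold of 10.9 (6.37 to 20.0). Hoxb6 (chr11:96292476-96301569) went from 0.321 to 5.09 CPM (15.8-fold, 6.95 to 44.5) and Hoxb5 (chr11:96303336-96306121) from 1.5 to 7.60 CPM (5.07-fold, 3.33 to 7.97). In the other 4 libraries Hoxb8 lay between 0 and 0.399 CPM, so that Csa-/- at 12 months stood apart from the whole series. Hoxa5 (1.18 and 4.82 CPM), Hoxb4 (0.963 and 3.53 CPM) and Hoxd3 (0.375 and 2.92 CPM) stayed under 5 CPM and were higher in the same library. The remaining members called higher were Slc6a5 and Glra1, the neurofilament gene Nefh, the synuclein family gene Sncg (2.46-fold), and the transcription factor genes Irx2 (2.91-fold) and Zfhx3 (1.68-fold). Nefh, Sncg and Zfhx3 were not called after the trend with length and GC content was removed.

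Cerebellar genes leaned the same way. Of 18 members, 17 had a fold above 1, 6 were called higher and 0 lower, with a median log2 fold of 0.47. The Purkinje cell genes Pcp2 (7.33 to 18.4 CPM, 2.52-fold) and Ppp1r17 (47.8 to 114 CPM, 2.39-fold), the Bergmann glia gene Gdf10 (17.8 to 39.7 CPM, 2.23-fold) and the granule cell genes Fat2 (85.7 to 184 CPM, 2.15-fold) and Cbln3 (153 to 261 CPM, 1.70-fold) were called, beside Grm4. Wild type at 12 months was the lowest of the 6 libraries for all 6, and Csa-/- at 12 months was the highest for 1 of them. Fat2 had 213 CPM in wild type at 45 days, above the Csa-/- level at 12 months.

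Monoamine genes were called in both directions. Of 31 members of the monoamine and acetylcholine list with at least 5 CPM, 7 were called higher and 3 lower, with a median log2 fold of 0.07. The 7 are known as genes of the monoamine neurons themselves: Dbh, the noradrenaline-forming enzyme (0.696 to 6.65 CPM, 9.55-fold), Slc6a2, the noradrenaline transporter (0.535 to 6.38 CPM, 11.9-fold), Slc6a4, the serotonin transporter (1.5 to 6.31 CPM, 4.21-fold), Tph2, the serotonin-forming enzyme (5.30 to 12.4 CPM, 2.34-fold), Slc6a3, the dopamine transporter (11.3 to 24.0 CPM, 2.12-fold), Th, tyrosine hydroxylase (24.0 to 45.1 CPM, 1.88-fold), and Slc18a2, the vesicular monoamine transporter (25.6 to 45.0 CPM, 1.76-fold). The 3 called lower were receptors of forebrain target cells: Drd1, Drd5 (6.96 to 2.65 CPM, 0.380) and Htr3a (8.24 to 3.66 CPM, 0.444). For Slc6a2 both 12-month libraries lay outside the other 4, which had 1.82 to 5.55 CPM. Wild type was the lowest and Csa-/- the highest.

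**Figure D3:**
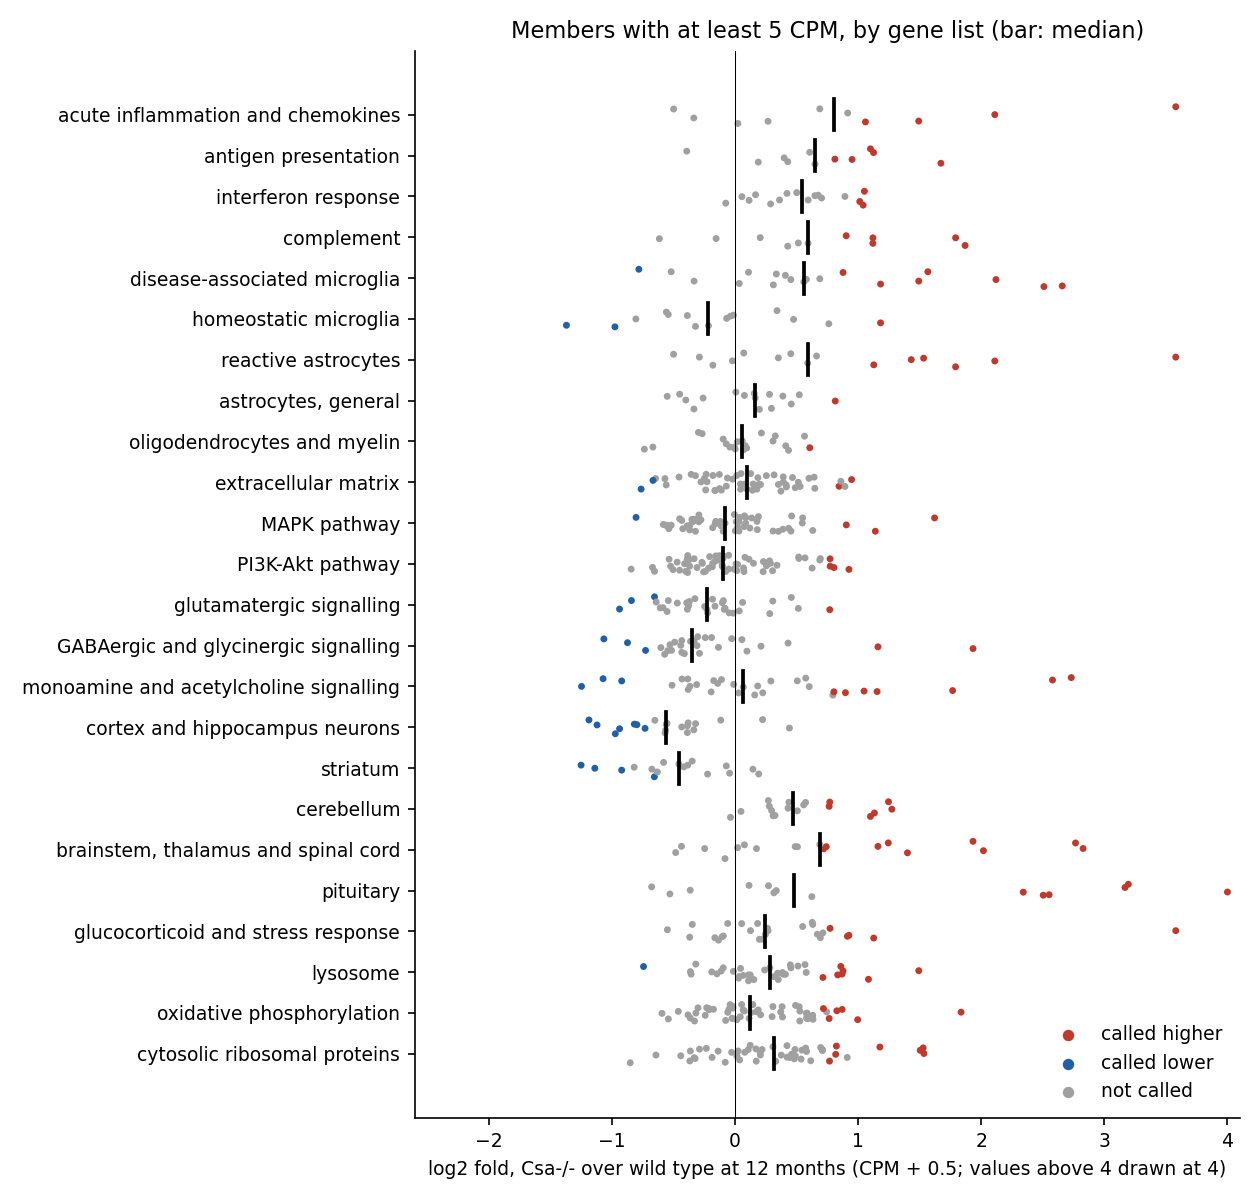
Log2 fold, Csa-/- over wild type at 12 months (x axis, CPM plus 0.5), for members with at least 5 CPM of 24 gene lists (rows). Each point is a gene, red when called higher, blue when called lower and grey otherwise, and the black bar is the median of the list; Pomc lies beyond the axis and is drawn at its edge. Reactive astrocyte, microglial activation, complement, hindbrain and cerebellar lists have medians right of 0, cortical and striatal lists left of 0, and the MAPK, PI3K-Akt and matrix lists near 0.

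Several pituitary hormone genes were higher in Csa-/-. Of 14 pituitary genes with at least 5 CPM, 6 were called higher and 0 lower, and the summed level of the list was 1455 CPM in wild type and 3139.9 CPM in Csa-/-. Growth hormone (Gh) went from 173 to 1586 CPM (9.18-fold, 8.85 to 9.53) and prolactin (Prl) from 42.2 to 242 CPM (5.73-fold, 5.30 to 6.19). The glycoprotein hormone subunits Cga (7.12 to 68.0 CPM), Lhb (0.589 to 5.02 CPM) and Fshb (0.696 to 6.51 CPM) were also called higher, and Tshb, at 0.214 and 4.21 CPM, stayed under the limit. Pomc (chr12:3954951-3960642), made in pituitary and hypothalamus, had 8 counts in wild type and 450 in Csa-/-, a fold of 71.3 (35.9 to 166). These genes also varied between libraries of 1 genotype: Gh had 616 CPM in wild type at 45 days and 1705 CPM at 24 months, and Pomc 11.2 and 36.2 CPM. Wild type at 12 months was thus the lowest of the 6 libraries in Gh, Prl, Cga and Pomc. Csa-/- at 12 months was the highest of the 6 libraries for 4 of the 6 pituitary genes called.

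Hypothalamic genes gave no common direction. Of 9 members, 2 were called higher, Trh (thyrotropin-releasing hormone, 2.36-fold) and Otp (a transcription factor, 2.65-fold), and 2 lower, Pmch (melanin-concentrating hormone, 41.6 to 24.2 CPM) and Six3 (36.4 to 21.1 CPM), both lost with scaling to library totals. In the choroid plexus list 2 of 19 were called higher, Ttr (transthyretin, 179 to 364 CPM) and Tmem72, and the median log2 fold was 0.00. In the ependymal list 2 of 5 were called higher, the cilia regulator Foxj1 (8.13 to 19.2 CPM) and the dynein gene Dnah11. The forebrain, hindbrain, cerebellar and pituitary lists thus moved beside the glial lists between the same 2 libraries; their part in the glial values was not tested.

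Markers of vessels, blood and other glia were called in both directions, against 5.86% of all genes. Of 18 endothelial genes, 1 was called higher (Ly6a) and 2 lower (Flt1 and Itm2a). The Flt1 and Itm2a calls were lost with scaling to library totals, and those of Ly6a and Itm2a after the trend with length and GC content was removed. Of 21 genes of mural cells, fibroblasts and meninges, 2 were called higher (Col1a2 and the matrix protein gene Mgp) and 0 lower. Of 35 genes of blood and circulating leukocytes, 3 reached 5 CPM, where 0 were called higher and 1 lower (Cd4), and the list summed to 111 CPM in wild type and 107 CPM in Csa-/-. In the lists of oligodendrocyte precursors (12 genes) and Schwann cells (8 genes), 0 were called in either direction. Of 16 olfactory bulb genes, 4 were called higher (Th, Trh, Doc2g and Uchl1) and 2 lower (Synpr and Dlx1). The calls of Doc2g, Uchl1 and Synpr were lost after the trend with length and GC content was removed. Of 15 neuropeptide genes, 3 were called higher (Pomc, Trh and Cartpt) and 1 lower (Pmch). Of 18 circadian clock genes, 0 were called higher and 1 lower (Arntl, lost with library totals and after the trend was removed), and of 33 genes of cholesterol and lipid handling, 1 was called higher (Plin4) and 1 lower (Lpl, also lost with library totals).

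**Figure D4:**
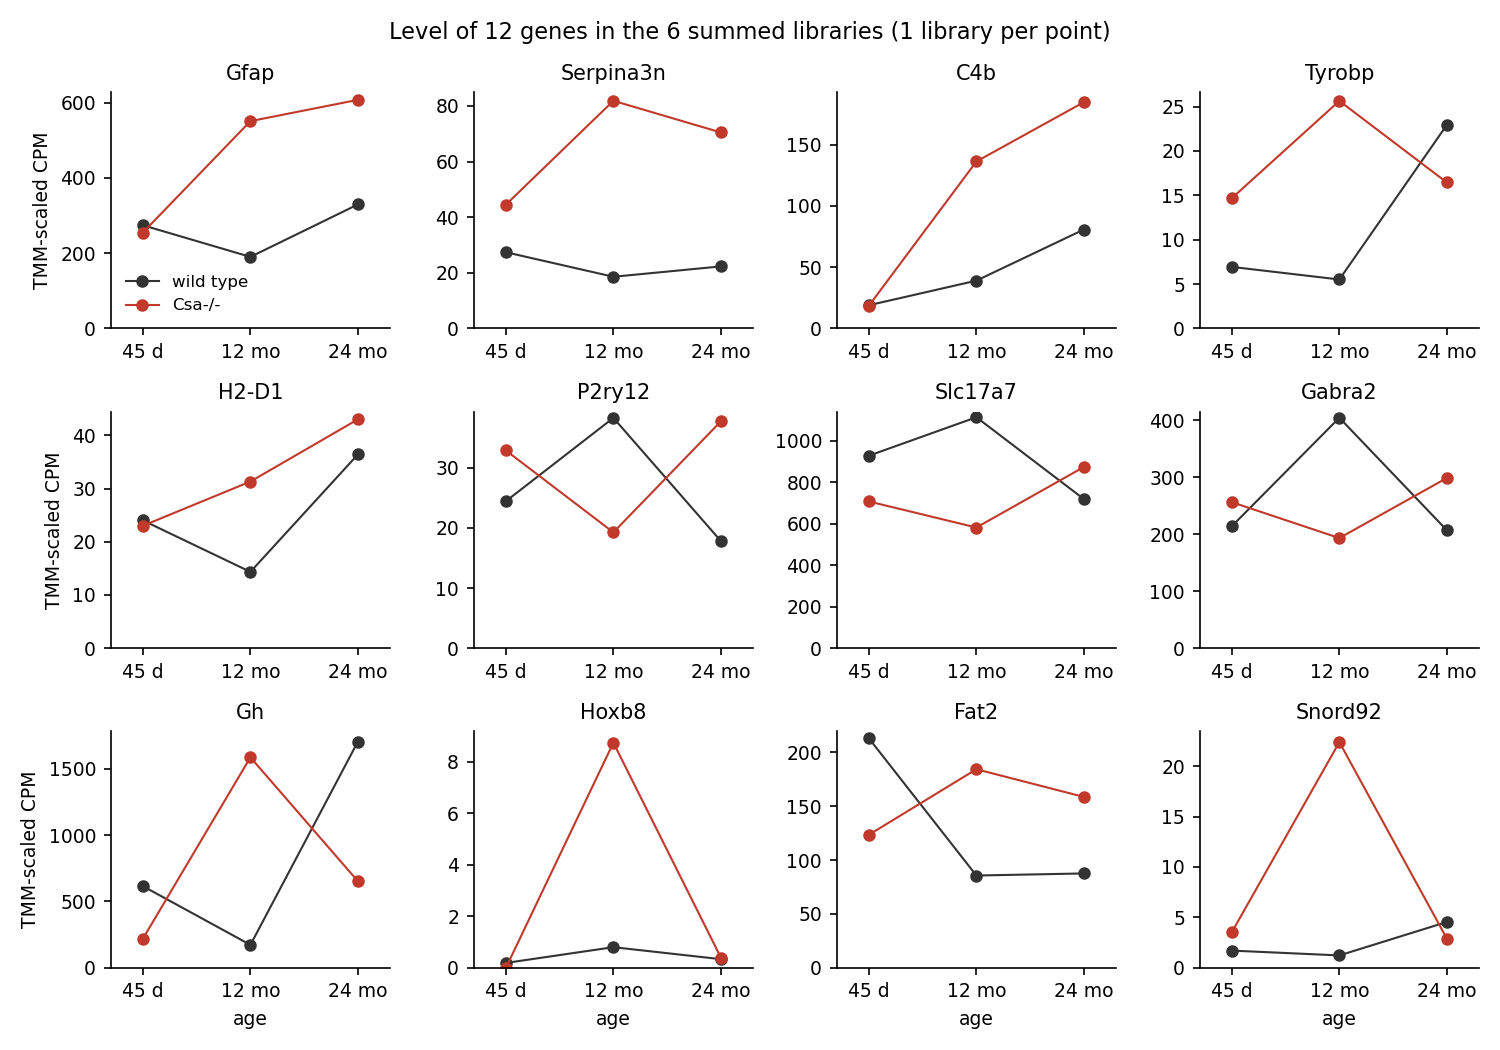
TMM-scaled CPM (y axis, from 0) of 12 genes at 45 days, 12 months and 24 months (x axis) in wild type (black) and Csa-/- (red), 1 summed library per point. Hoxb8 is high in Csa-/- at 12 months alone, and C4b and Gfap are higher in Csa-/- at 12 and 24 months. Wild type at 12 months is the highest of the 6 for Slc17a7 and Gabra2 and the lowest for Gh. Csa-/- at 12 months is the lowest of the 6 for Slc17a7 and Gabra2.

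In the signalling pathways of the title, the shares called were near those of all genes, 3.57% higher and 2.28% lower. Of 57 MAPK pathway genes, 3 were called higher and 1 lower, with a median log2 fold of -0.08. Mapkapk3, a kinase downstream of p38, went from 2.46 to 8.61 CPM (3.50-fold, 2.48 to 5.02), the stress gene Gadd45g from 3.26 to 7.80 CPM (2.39-fold) and Mapk12, p38 gamma, from 11.6 to 22.2 CPM (1.91-fold). Rasgrp1, a Ras activator of forebrain neurons, went from 582 to 333 CPM (0.573, 0.554 to 0.593). Of 62 PI3K-Akt genes, 4 were called higher and 0 lower, with a median log2 fold of -0.10: the kinase gene Sgk1 (106 to 181 CPM, 1.71-fold), the mTORC1 inhibitor gene Ddit4 (18.6 to 35.7 CPM, 1.92-fold), and the integrin genes Itgb4 (1.77-fold) and Itgb5 (1.72-fold). After the trend with length and GC content was removed, Gadd45g, Mapk12, Ddit4, Itgb4 and Itgb5 were no longer called. Of 55 extracellular matrix genes, 2 were called higher, the collagen genes Col18a1 (16.1 to 31.5 CPM, 1.96-fold) and Col1a2 (9.10 to 16.8 CPM, 1.84-fold), and 2 lower, the transmembrane collagen gene Col25a1 (71.2 to 41.8 CPM, 0.587) and the perineuronal net gene Ncan (215 to 135 CPM, 0.630). The median log2 fold was 0.10. Of these 4, Ncan alone was still called after that trend was removed, and it was not called with scaling to library totals.

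Of 27 glucocorticoid and stress response genes, 5 were called higher and 0 lower, with a median log2 fold of 0.25. Besides Sgk1, Ddit4 and Lcn2 these were Mt2, a metallothionein (57.2 to 108 CPM, 1.89-fold), and Plin4, a lipid droplet protein gene (5.57 to 12.8 CPM, 2.29-fold). Mt2 and Ddit4 were not called after the trend with length and GC content was removed. Sgk1 was also above wild type in the other Csa-/- libraries, with 394 CPM at 45 days and 359 CPM at 24 months against 67.9 and 91.1 CPM, and its fold was smallest at 12 months. Hif3a had 6.58 and 10.4 CPM at 12 months (fold 1.59, 1.24 to 2.03) and was not called.

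Genes of DNA repair and of the damage response had medians near 0. Of 36 genes of transcription-coupled and nucleotide excision repair, 0 were called higher and 1 lower, Rad23b, which helps recognise lesions (264 to 166 CPM, 0.627), with a median log2 fold of -0.03. Ercc6, which encodes the CSA partner CSB, had 44.6 and 36.4 CPM (0.816, 0.730 to 0.910). Of 21 genes of the p53 and damage response, 1 was called higher (Ddit4) and 2 lower, the kinase gene Plk2 (209 to 131 CPM) and the ribonucleotide reductase gene Rrm2b (62.8 to 35.5 CPM), with a median log2 fold of -0.09. The cell cycle inhibitor gene Cdkn1a had 14.0 and 23.0 CPM (1.64, 1.39 to 1.93) and was not called. In the senescence list, 1 of 9 was called higher, Igfbp7 (4.55 to 10.9 CPM). The calls of Rad23b, Ddit4, Plk2, Rrm2b and Igfbp7 were all lost after the trend with length and GC content was removed, and those of Rad23b and Plk2 also with scaling to library totals.

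Lysosomal genes leaned upward: of 37 members, 28 had a fold above 1, 7 were called higher and 1 lower, with a median log2 fold of 0.28. The cathepsin genes Ctss (52.6 to 94.2 CPM, 1.79-fold), Ctsh (1.88-fold) and Ctsa (1.65-fold), the sterol carrier gene Npc2 (43.8 to 80.0 CPM) and the transcription factor gene Tfeb (8.24 to 18.0 CPM) were called higher with Cd68 and Gpnmb, and Npc1, the membrane partner of Npc2, was called lower (106 to 62.9 CPM), a call lost with scaling to library totals. Ctsa, Cd68 and Npc1, and Mbp below, were not called after the trend with length and GC content was removed. Of 21 oligodendrocyte genes, 1 was called higher, the myelin gene Mbp (3916 to 5969.6 CPM, 1.52-fold), with a median log2 fold of 0.06. Of 54 oxidative phosphorylation genes, 6 were called higher and 0 lower (median log2 fold 0.12), led by Cox6b1, a subunit of complex IV (19.7 to 71.8 CPM, 3.64-fold). Of 50 cytosolic ribosomal protein genes, 8 were called higher and 0 lower, with a median log2 fold of 0.32 that was 0.13 after the trend with length and GC content was removed; the largest were Rps16 (3.04-fold) and Rpl18 (2.98-fold). The calls of Ndufa3 and Ndufs7, and of Rps2 and Rps14, were lost after that trend was removed. Ribosomal protein genes have many near-identical copies, so their counts are uncertain. Rps16 had 24.5 CPM in wild type at 24 months, above 18.9 CPM in Csa-/- at 12 months.

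snoRNAs, which guide the methylation and pseudouridylation of ribosomal RNA, were mostly called higher where they reached 5 CPM. They were grouped after their values had been seen. Of 119 in the table, 42 reached 5 CPM; 41 of these were called higher and 1 lower, with a median fold of 4.81 (0.444 to 18.2). All 40 of the box C/D class were among those called higher. Of the H/ACA class only Snora7a reached the limit and was called higher, and the scaRNA Scarna17 was called lower. Many of the 42 reached 5 CPM in Csa-/- alone, which raises the share called higher. Members under the limit had folds on both sides of 1. Most snoRNAs are cut from introns of host genes, and 39 of the 42 lay within a gene of the table. Of the 30 host genes, 28 reached 5 CPM, where 0 were called higher and 1 lower (Rpl13a), and the median fold of the hosts was 1.09 (0.450 to 2.01). None of the hosts was thus called in the direction of its snoRNA. The sequences of 3 box C/D snoRNAs with large folds are shown, 5′ to 3′ (mm10), with the C box TGATGA and the last D box CTGA, the motifs that define the class, in capitals. The exact letters TGATGA were found in 27 of the 40 box C/D snoRNAs, and CTGA in all 40.
Snord92, chr17:71631281-71631365, + strand: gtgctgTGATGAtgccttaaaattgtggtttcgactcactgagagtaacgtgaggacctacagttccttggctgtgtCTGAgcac
Snord61, chrX:57391449-57391519, - strand: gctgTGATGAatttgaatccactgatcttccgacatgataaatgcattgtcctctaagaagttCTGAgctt
Snord15b, chr7:99479563-99479707, - strand: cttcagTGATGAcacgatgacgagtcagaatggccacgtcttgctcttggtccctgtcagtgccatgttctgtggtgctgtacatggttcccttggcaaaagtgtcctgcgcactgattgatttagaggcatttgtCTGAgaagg

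Snord92 had 1.75, 0.596, 0.854, 1.31 and 1.498 CPM in the wild-type runs and 24.3, 21.6, 20.2, 22.5 and 22.9 CPM in the Csa-/- runs, a fold of 18.2 (11.9 to 29.1). Its host Wdr43 had 41.9 and 39.4 CPM, a fold of 0.940. Snord61 (0.642 to 11.1 CPM) lies in Rbmx, with 90.5 and 61.0 CPM, and Snord15b (0.749 to 11.3 CPM) in Rps3, with 103 and 117 CPM. Removal of the trend with length and GC content lowered the log2 fold of Snord92 from 3.72 to 1.93. That of Snord61 fell from 3.34 to 1.65 and that of Snord15b from 3.23 to 1.82, and these genes were still called. The summed level of all snoRNAs was 641 CPM in wild type and 3048 CPM in Csa-/- at 12 months. In the other libraries it was 675 CPM (wild type, 45 days), 1796 CPM (wild type, 24 months), 1852 CPM (Csa-/-, 45 days) and 747 CPM (Csa-/-, 24 months), so its order did not follow genotype. Rn45s, the precursor of ribosomal RNA, had 1106 and 9671 CPM (8.74-fold, 8.61 to 8.87), and Lars2, a mitochondrial leucyl-tRNA synthetase gene, 188 and 701 CPM (3.74-fold). These RNAs have no poly(A) tail, apart from Lars2, and the libraries were made from poly(A)-selected RNA. Their level thus differed between the same 2 libraries as the gene lists above, and its part in those values was not tested. Without snoRNAs and Rn45s, an alternative chosen after seeing the data, 425 genes were called higher and 251 lower, of which 401 and 251 were called with them.

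**Figure D5:**
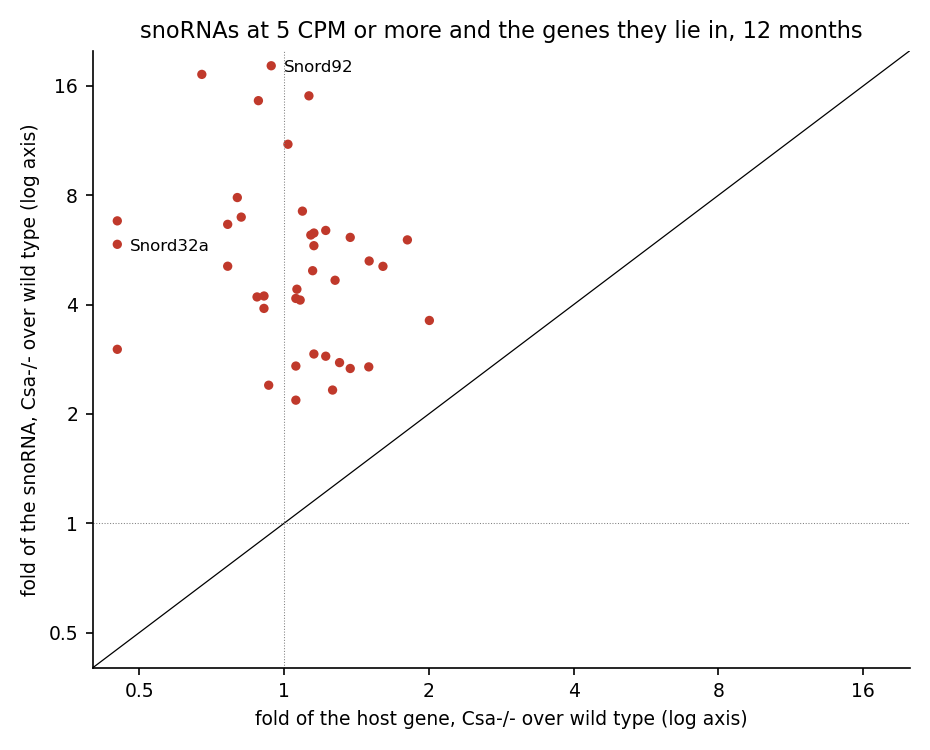
Fold, Csa-/- over wild type at 12 months, of 39 snoRNAs with at least 5 CPM (y axis) against the fold of the gene each lies in (x axis), both on log axes. Each point is a snoRNA and the line marks equal folds; all 39 lie above the line, with host folds between 0.450 and 2.01.

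Many calls at 12 months were not shared by the other ages. At 45 days 957 genes were called higher (7.66%) and 693 lower (5.54%) in Csa-/-, and at 24 months 1423 higher (11.4%) and 1199 lower (9.58%), in libraries that the 12-month comparison does not use. Of the 443 genes called higher at 12 months, 68 were called higher at 45 days (15.3%, against 7.21% of the 12394 genes) and 21 at 24 months (4.74%, against 11.2%). In contrast, 193 of the 443 were called lower at 24 months (43.6%, against 9.09% of the 12394 genes), which is 17.1% of the 1127 genes called lower there; the shares in these sentences are over the genes that reached 5 CPM at 12 months. Of the 283 genes called lower at 12 months, 89 were called higher at 24 months (31.4%, against 11.2%), which is 6.41% of 1389, and 5 were called lower (1.77%, against 9.09%). At 45 days 38 of the 283 were called higher (13.4%, against 7.21%) and 16 lower (5.65%, against 5.49%). Among the 6 reactive astrocyte genes called at 12 months, 3 were called higher at 24 months and 0 at 45 days, and among the 7 microglial activation genes 4 and 1 were. Gfap was 1.84-fold higher at 24 months, Serpina3n 3.16-fold, C4b 2.29-fold, Itgax 3.41-fold and Gpnmb 5.02-fold, and at 45 days these folds were 0.929, 1.62, 0.978, 0.820 and 2.11. No test of the difference between ages was possible with 1 library per group.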

How the data were processed

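RNA from pulverised brains of wild-type and Csa-/- mice was sequenced 5 times per sample. The authors deposited raw counts per gene; The submitters' processing notes name the build mm10 and, as tools, HISAT2 2.2.1, Subread 2.0.1, Trimmomatic 0.3.9 and SAMtools, with no role for each. The gene annotation and the strand setting are not given in the sources used here. The table held 25239 genes, and none of its columns was left over. Symbols were placed with GENCODE M21.

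The 5 runs of each group were summed, and TMM factors over the 6 libraries (edgeR 4.0.16, R 4.3.3) gave CPM; 3 counts equal 0.161 CPM in wild type and 0.203 CPM in Csa-/- at 12 months. Fold intervals, exact Clopper-Pearson, came from Python 3.11.15 and SciPy 1.17.1. They were run on simulated counts with counting error alone, which cannot show how they hold for spread between libraries or mice. The log2 folds used CPM plus 0.5. Named were Ercc8, the 15 largest folds in each direction among called genes with a symbol, up to 8 called members of each of 42 lists (1129 genes) and members that show how a list divides. Some of these results are not reported here. Members and lists were chosen with earlier results of these data known, and the snoRNA group after its values were seen. The trend alternative removed a spline of fold on exonic length and GC content, which held 23.2% of the variance. Other alternatives were DESeq2 1.42.0 size factors, other scalings and level limits, and each run left out.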

Additional observations from a re-analysis of the deposited data

Results flagged for a closer look

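Some named genes were called in opposite directions at 12 months and at another age. Each value below is the Csa-/- over wild-type fold at that other age, rests on 1 library per group, and the difference between ages was not tested.

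Called higher at 12 months and lower at 24 months were the hormone and peptide genes Pomc (0.10), Trh (0.370), Gh (0.383) and Cartpt (0.559), and the genes Ttr (0.489) and Foxj1 (0.559) of choroid plexus and ependyma. The same held for subunits of oxidative phosphorylation: Cox6b1 (0.349), Uqcrq (0.360), Ndufs7 (0.402), Ndufa3 (0.504), Uqcrc1 (0.549) and Ndufb8 (0.592). It also held for ribosomal protein genes: Rps16 (0.330), Rps14 (0.332), Rpl18 (0.388), Rps2 (0.414), Rpl35 (0.430), Rps9 (0.487) and Rps25 (0.576). The non-coding RNAs were Snord15b (0.282) and Rn45s (0.344). The remaining genes were Baiap2l1 (0.161), Uchl1 (0.427), Sncg (0.447), Ntsr2 (0.473), Ifi27 (0.511), Mbp (0.544), Hcn2 (0.584), Npc2 (0.593) and Lars2 (0.611).

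Called higher at 12 months and lower at 45 days were Pomc (0.185), Gh (0.357), Prl (0.450), Cga (0.506), Ttr (0.437) and Foxj1 (0.473), and the neuronal genes Slc6a5 (0.302), Slc6a2 (0.408), Nefh (0.434), Glra1 (0.453), Slc6a4 (0.482) and Fat2 (0.580), with the integrin gene Itgb5 (0.577).

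Called lower at 12 months and higher at 24 months were Ccl28 (4.39), Pde10a (2.17), P2ry12 (2.12), Rrm2b (2.10), Npc1 (2.04), Mef2c (1.98), Syt1 (1.87), Synpr (1.75) and Rasgrp1 (1.68). Called lower at 12 months and higher at 45 days were Svbp (2.52), Pmch (2.38), Hnrnpa1 (2.25), Gpr34 (1.97), Klf10 (1.79), Synpr (1.74), Egr1 (1.62), Plk2 (1.59) and Vamp2 (1.58).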

How the results depend on the processing

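Of the 443 genes called higher, 243 were left with a limit of 20 CPM, 129 with intervals beyond 2-fold and 278 after removal of the trend with length and GC content (231 of them among the 443), and 703 were called with no limit on level. Of the 283 called lower, 160 were left with scaling to library totals, 15 with intervals beyond 2-fold, and 124 were among the 214 called after that trend was removed. DESeq2 size factors gave 438 and 295. Leaving out each run in turn gave 408 to 446 genes called higher and 255 to 295 lower. The median log2 fold of the glutamatergic list was -0.14 and that of the GABA and glycine list -0.26 with library totals, and the latter was -0.24 after the trend was removed. In the median log2 fold, hypothalamus genes reversed from 0.24 to -0.38 with a limit of 20 CPM, where 6 of 9 were left. Of 157 named genes that were called, 113 were still called after the trend was removed, 141 with library totals, 157 with DESeq2 size factors, and 140 to 150 with any 1 run left out. In all, 34 of the 157 lost their call in at least 1 such fit, among them C3, Tlr2, Rtp4, Cd68, Aspg, H2-Aa, H2-K1, Hoxb6, Lhb, Mbp, Nefh, Zfhx3, Foxp2, Pde10a, Ncan, Vamp2, Plk2 and Lpl. The calls of Hoxb6 and Lhb were also lost with TMM over the 12-month libraries alone, and those of Lpl, Ncan, Pmch, Pde10a, Six3, Plk2 and Arntl without snoRNAs and Rn45s. With library totals the calls were 574 higher and 160 lower. No paired analysis was possible because each genotype is 1 library at 12 months and no test was made. Genes under 5 CPM in both libraries were left out by the level limit; with a limit of 1 CPM, 635 were called higher and 321 lower.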
